A study of Mus musculus with 12 samples.

Results

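The genes described here encode sensors of double-stranded or otherwise foreign RNA and an adaptor that some of them share: Ddx58, Ifih1, Dhx58, Mavs, Tlr3, Zbp1 and Eif2ak2. All 7 were measured, among 19938 genes in all. The set was drawn up by function, after Ddx58 had come out among the genes with the lowest values under all-trans retinoic acid (ATRA) relative to the solvent, to see whether the other members share that difference. The set was thus chosen by the measured ATRA against DMSO value of Ddx58, which is given without a test, as are its values in the other comparisons that use ATRA or DMSO arrays. The other 6 members were chosen for what they encode, though with earlier results of these data known. Each gene was read from the single probe set (a group of oligonucleotide probes for 1 transcript) that the platform annotation assigns to it alone, and no member had a further probe set.

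Total RNA was taken from D3 cells, a line of murine embryonic stem (ES) cells used here as 1 clone, in 12 samples that form 4 groups of 3, labelled as biological replicates. ATRA samples were embryoid bodies (EBs, aggregates formed in bacteriological dishes without LIF) exposed for 12 h to ATRA at a labelled 5 micromolar, and DMSO samples were EBs exposed for 12 h to the solvent alone. EB samples were untreated bodies at day 4, and ES samples were undifferentiated cells at day 0 in medium with serum. It is not clear from the labels if the 12 h of exposure came after the 4 days or was part of them, and all groups come from this 1 clone, with no virus, RNA ligand or interferon given to any of them.

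RIG-I (from Ddx58) and MDA5 (from Ifih1) are cytosolic helicases that bind viral RNA, RIG-I preferring short ends with a triphosphate and MDA5 long duplexes. Both carry caspase recruitment domains through which they act on MAVS, an adaptor on the mitochondrial outer membrane that switches on the kinases TBK1 and IKK-epsilon, the factors IRF3 and IRF7 and, through these, type I interferon. LGP2 (from Dhx58) has the helicase but lacks the recruitment domains and tunes the other helicases. TLR3 reads double-stranded RNA inside endosomes and not in the cytosol, ZBP1 binds Z-form nucleic acid and can start necroptosis through RIPK3, and PKR (from Eif2ak2) is a kinase that halts translation by phosphorylating eIF2alpha. Several of these genes are themselves interferon-stimulated, and pluripotent cells are known for a weak interferon response. The human RIG-I gene was first found, and named, as induced by retinoic acid in leukaemia cells.

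RefSeq promoter windows of build GRCm38.p6 were found for 5 of the 7 members, and not for Dhx58 and Zbp1, which are named only. In the 250 bases before the start, the interferon regulatory factor core AANNGAAA, searched on both strands, occurred in 2 of the 5, Ddx58 and Tlr3, against 21.3% of 32851 promoter windows of that length. It was searched after the longer paired form GAAANNGAAA, which contains it, gave no match in the 5 windows (2.98% of all windows hold that form). The exact repeats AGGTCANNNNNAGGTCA and AGGTCANNAGGTCA, forms of the retinoic acid response element, had no match on either strand in the 5 windows. Each occurs in 0.00913% of all windows, so a match in 5 windows was very unlikely beforehand and its absence carries no information. Elements with other half-sites, or outside these 250 bases, were not searched. The Ddx58 window (chr4:40239826-40240075, minus strand) is shown because this gene differed most with ATRA, with the core in capitals. The Mavs window (chr2:131233813-131234062, plus strand) and the Eif2ak2 window (chr17:78882573-78882822, minus strand) are shown for comparison as members with other patterns. All are written in the direction of transcription and end at the base before the start.
Ddx58: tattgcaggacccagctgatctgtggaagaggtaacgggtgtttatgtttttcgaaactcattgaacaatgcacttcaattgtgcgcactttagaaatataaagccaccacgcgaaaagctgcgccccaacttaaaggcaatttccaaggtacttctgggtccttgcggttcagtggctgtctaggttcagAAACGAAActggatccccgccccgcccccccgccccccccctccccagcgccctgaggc
Mavs: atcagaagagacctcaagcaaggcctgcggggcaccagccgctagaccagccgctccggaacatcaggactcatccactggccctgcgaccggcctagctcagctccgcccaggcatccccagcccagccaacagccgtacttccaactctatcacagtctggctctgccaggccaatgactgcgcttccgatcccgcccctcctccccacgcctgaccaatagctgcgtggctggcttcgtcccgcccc
Eif2ak2: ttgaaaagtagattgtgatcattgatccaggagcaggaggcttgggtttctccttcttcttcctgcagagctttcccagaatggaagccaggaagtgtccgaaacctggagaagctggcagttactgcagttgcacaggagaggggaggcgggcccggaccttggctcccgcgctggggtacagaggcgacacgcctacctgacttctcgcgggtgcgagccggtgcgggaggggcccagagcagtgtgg

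The match of Tlr3 lay 59 to 52 bases before its start, as did that of Ddx58, and is shown with the same core in capitals, on the opposite strand (chr8:45410421-45410450, minus strand, 30 bases). The RefSeq gene record of Tlr3 extends beyond this start, so the window may lie within a longer transcript.
Tlr3: aagtgaatggcTTTCACTTtgtttagacac

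Values are log2 probe set levels. They can be compared between arrays but not between genes, because probe sets differ in how strongly they hybridise. The table holds no detection calls, so a low value does not show whether a transcript was present. The arrays had medians of 7.76 to 7.86 and replicates correlated at 0.992 to 0.997. The interquartile ranges ran from 3.50 to 3.65 and were lowest in ES replicate 2 and EB replicate 2. The retinoid response was present in the ATRA samples: Cyp26a1, which encodes the main enzyme of retinoic acid breakdown, stood at 11.58 ± 0.12 with ATRA, 9.82 ± 0.14 with DMSO, 9.06 ± 0.11 in day 4 EBs and 7.84 ± 0.12 in ES cells (SD, n = 3 each). The pluripotency gene Pou5f1 was at 13.39 ± 0.03 with ATRA, 13.38 ± 0.02 with DMSO, 13.38 ± 0.01 in EBs and 13.33 ± 0.02 in ES cells, while other pluripotency markers moved, as given with the marker lists at the end. Differences below are log2 differences ± SE from 1 limma fit to all 12 arrays (n = 3 per group), with 95% intervals and p-values adjusted by Benjamini-Hochberg over all 19938 genes, two-sided, with a threshold of 0.05.

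Ddx58 (probe set 10512067) measured 8.80, 8.87 and 8.78 in the 3 ATRA arrays, against 10.03, 10.14 and 9.95 in the DMSO arrays. Day 4 EBs gave 10.10, 9.97 and 10.15, and ES cells 10.90, 10.76 and 10.83. The gene thus stood on 3 separate levels, highest in ES cells, intermediate in both EB groups without ATRA, and lowest with ATRA, and the intermediate groups overlapped. The ATRA samples were lower than the DMSO samples by a log2 difference of -1.22 ± 0.06 (95% interval -1.36 to -1.08, or 2.33-fold lower), a difference that 0.0301% of genes exceeded in the negative direction. Against day 4 EBs the difference of the ATRA samples was -1.25 ± 0.06, and the difference of DMSO samples from EBs was -0.03 ± 0.06 (interval -0.17 to 0.11). The ATRA and DMSO arrays were used to single out this gene, so these 3 values are descriptions. Day 4 EBs and ES cells were not, and there Ddx58 fell by 0.76 on the log2 scale (interval -0.90 to -0.62, 1.69-fold lower, limma adjusted p = 1.28e-06). Between ATRA samples and ES cells the whole span was -2.01 (4.03-fold lower).

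**Figure D1:**
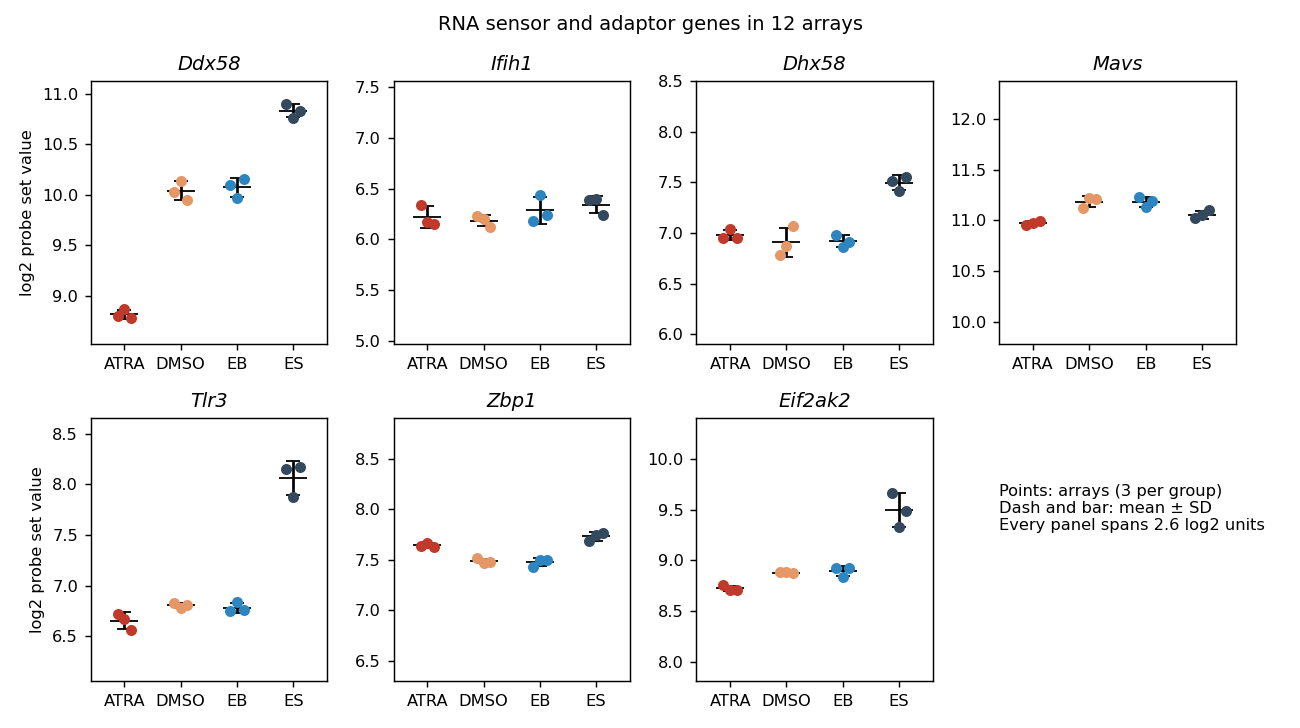
Log2 probe set values of the 7 genes in every array (points), with group means and SD (dash and bar, n = 3), for ATRA, DMSO, day 4 EB and ES samples from left to right; every panel spans the same number of log2 units. Ddx58 is the gene whose ATRA arrays (8.78 to 8.87) stand far below its DMSO arrays (9.95 to 10.14), while Tlr3, Dhx58 and Eif2ak2 stand apart mainly in ES cells.

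The other RIG-I-like helicase genes did not show a difference of that kind with ATRA. Ifih1 (probe set 10483110) measured 6.34, 6.17 and 6.15 with ATRA, against 6.23, 6.20 and 6.12 with DMSO. The groups overlapped, and the log2 difference of 0.03 ± 0.08 was not called (interval -0.13 to 0.20, limma adjusted p = 0.818). Dhx58 (probe set 10391207) measured 6.95, 7.04 and 6.95 with ATRA, against 6.78, 6.87 and 7.07 with DMSO. These groups overlapped too, DMSO being the more scattered, and the difference of 0.07 ± 0.07 was not called (interval -0.08 to 0.23, adjusted p = 0.55). Both genes read below the array medians of 7.76 to 7.86, as did Tlr3 and Zbp1, given below, in the ATRA and DMSO arrays. With no detection calls it is not known whether these probe sets could have shown a lower level.

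Mavs, the adaptor shared by RIG-I and MDA5, was the 1 member of the 6 tested for which a lower level with ATRA passed the test. Its probe set (10476276) gave 10.95, 10.97 and 10.99 with ATRA, against 11.12, 11.22 and 11.21 with DMSO. The groups did not overlap, and Mavs fell by 0.21 on the log2 scale (interval -0.31 to -0.11, 1.16-fold lower, limma adjusted p = 0.00832). The call held in each of the 17 alternatives run (adjusted p up to 0.0392). The size was small beside that of Ddx58.

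Zbp1 went the other way. Its probe set (10490150) gave 7.64, 7.67 and 7.62 with ATRA, against 7.52, 7.47 and 7.48 with DMSO. All ATRA values lay above all DMSO values, and Zbp1 rose by 0.16 ± 0.04 (interval 0.06 to 0.25, 1.11-fold, limma adjusted p = 0.0307). This call was close to the threshold: without any 1 of the 6 arrays the adjusted p lay between 0.0534 and 0.117, and with the replicate number as a block it was 0.0501. Ripk3, the kinase gene through which ZBP1 acts in necroptosis, fell by 0.45 on the log2 scale (adjusted p = 2.32e-04). Mlkl, listed with Ripk3 among the other effectors, was not called (0.02 ± 0.07, limma adjusted p = 0.897). A link of these values to Zbp1 was not tested.

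Tlr3 and Eif2ak2 were slightly lower with ATRA without passing the test. Tlr3 (probe set 10578493) measured 6.72, 6.67 and 6.56 with ATRA, against 6.83, 6.78 and 6.80 with DMSO. Its groups did not overlap, and the difference was -0.15 ± 0.07 (interval -0.32 to 0.01, limma adjusted p = 0.229). Eif2ak2 (probe set 10452980) measured 8.76, 8.70 and 8.71 with ATRA, against 8.89, 8.88 and 8.87 with DMSO. These groups were also separate, with a difference of -0.16 ± 0.07 (interval -0.31 to -0.01, adjusted p = 0.179). Eif2ak2 passed when array weights were used (adjusted p = 0.026) and when only the ATRA and DMSO arrays were fitted (adjusted p = 0.0259).

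Of the 6 members tested for ATRA against DMSO, 1 was lower, 1 was higher and 4 were not called, where 13.3% of all genes were called, 7.05% as lower and 6.26% as higher. The lowest bound of any of their 6 intervals was -0.32, with the limit of low readings for Ifih1, Dhx58, Tlr3 and Zbp1. The groups of 4 of these 6 did not overlap, against 39.6% of all genes. The median difference of the 6 was -0.06, against 0.01 over all genes.

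Between DMSO and day 4 EBs none of the same 6 members was called (limma, 0 of 6 at an unadjusted p under 0.05 as well, where 0.747% of all genes were called), the differences ran from -0.10 for Ifih1 to 0.02 for Tlr3, and their 6 intervals lay between -0.27 and 0.19. Set against day 4 EBs in place of DMSO, the ATRA samples had Mavs at -0.21 (adjusted p = 0.00683), Zbp1 at 0.17 (adjusted p = 0.0167), Eif2ak2 at -0.17 (adjusted p = 0.111), Tlr3 at -0.13 (adjusted p = 0.29), Ifih1 at -0.07 (adjusted p = 0.645) and Dhx58 at 0.06 (adjusted p = 0.633), with 18.4% of all genes called. This comparison shares the ATRA arrays with the one above and is no separate evidence. Eif2ak2 passed in 4 of 17 alternatives, namely with genes above the median of mean value (adjusted p = 0.0437), with array weights (0.0172), with only the ATRA and EB arrays (0.0413) and without ES replicate 2 and EB replicate 2 (0.0287). The call of Zbp1 in it ended without EB replicate 1 (adjusted p = 0.0571), without ATRA replicate 1 (0.05003) or without ATRA replicate 2 (0.0736).

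**Figure D2:**
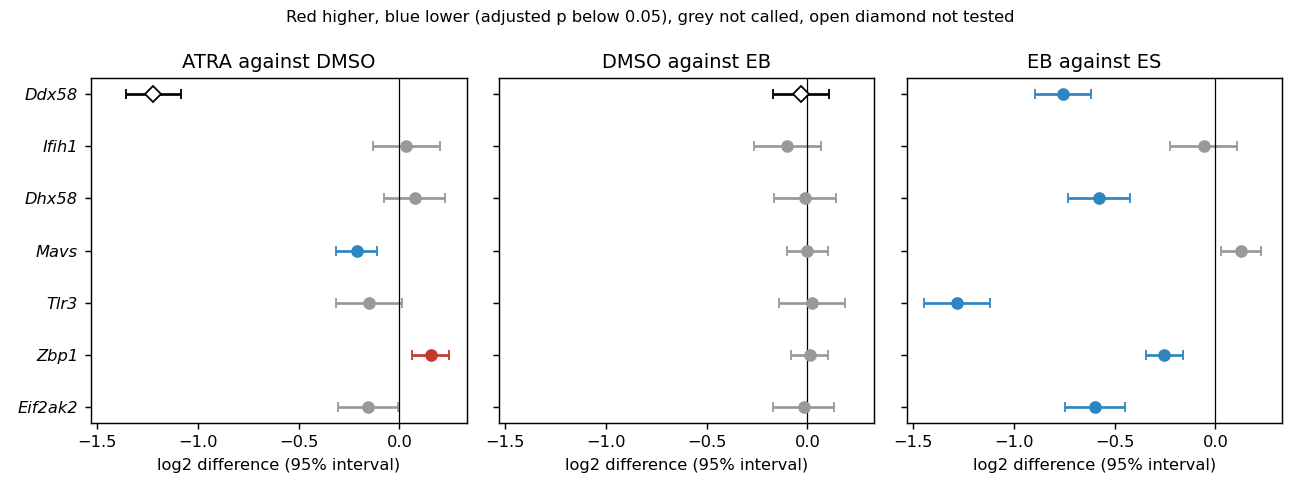
Log2 differences of the 7 genes with 95% intervals for ATRA against DMSO, DMSO against EB, and EB against ES; red is called higher, blue called lower, grey not called, and an open diamond marks Ddx58 where it was not tested. The interval of Ddx58 for ATRA against DMSO (-1.36 to -1.08) lies apart from those of the other 6, but this comparison singled Ddx58 out. For EB against ES 5 of the 7 genes were called lower.

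The step from ES cells to day 4 EBs compares none of the arrays that singled out Ddx58, though all 12 share 1 estimate of the spread. Of the 7 members, 5 fell, none rose and 2 were not called (limma, 6 of 7 at an unadjusted p under 0.05), where 34.7% of all genes were called, 16.9% as lower and 17.8% as higher. The groups of 6 members did not overlap, against 41.3% of all genes. The median difference was -0.58, against 0.00 over all genes. The effects of differentiating, of aggregating and of losing LIF cannot be told apart in this step. Fibroblast markers were also called lower in it, in 11 of 13 cases, and the part of such cells was not tested.

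Tlr3 fell most. It measured 6.75, 6.84 and 6.76 in EBs, against 8.15, 7.87 and 8.18 in ES cells. The groups lay more than 1 log2 unit apart, and the difference was -1.28 ± 0.07 (interval -1.45 to -1.12, 2.44-fold lower, limma adjusted p = 5.52e-08). Eif2ak2 measured 8.92, 8.84 and 8.93 in EBs, against 9.66, 9.33 and 9.49 in ES cells, and fell by 0.60 on the log2 scale (1.51-fold lower, adjusted p = 2.26e-05). Dhx58 measured 6.98, 6.86 and 6.91 in EBs, against 7.52, 7.41 and 7.55 in ES cells, and fell by 0.58 on the log2 scale (1.49-fold lower, adjusted p = 3.57e-05). ES replicate 2 was the lowest ES array for Tlr3, Eif2ak2, Dhx58 and Ddx58. Without ES replicate 2 and EB replicate 2, the differences were -1.41 for Tlr3, -0.65 for Eif2ak2, -0.59 for Dhx58 and -0.74 for Ddx58, and the same 5 members were called.

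Zbp1 fell less, with 7.43, 7.50 and 7.50 in EBs, against 7.68, 7.74 and 7.76 in ES cells. The groups did not overlap, and the difference was -0.25 ± 0.04 (limma adjusted p = 4.73e-04). Ifih1 overlapped between the groups, with 6.18, 6.44 and 6.24 in EBs, against 6.39, 6.40 and 6.24 in ES cells, and its difference of -0.06 ± 0.08 was not called (interval -0.22 to 0.11, adjusted p = 0.631). Mavs was higher in each EB array (11.23, 11.13 and 11.19) than in any ES array (11.02, 11.05 and 11.10). Its difference of 0.13 ± 0.05 lay at the threshold (interval 0.03 to 0.23, adjusted p = 0.0518) and passed in 3 of the alternatives run. The adaptor gene and Ifih1 were thus the 2 members not called lower in this step.

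Ordered by group mean, the members fell into different patterns across the 4 groups. Tlr3, Eif2ak2 and Dhx58 were highest in ES cells, and every EB group, with or without DMSO or ATRA, differed from ES cells beyond its spread (limma adjusted p at most 8.91e-05 for the ATRA and DMSO groups), while no pair among the ATRA, DMSO and EB groups was called. Zbp1 was also highest in ES cells, but its ATRA mean of 7.64 ± 0.02 came next and did not differ from the ES mean of 7.73 ± 0.04 by the test (difference -0.09 ± 0.04, adjusted p = 0.139), with the DMSO and EB means at 7.49 ± 0.02 and 7.48 ± 0.04. Mavs had DMSO and EB at 11.18 each, ES cells at 11.06 ± 0.04 and ATRA lowest at 10.97 ± 0.02, the last pair not differing by the test (-0.09 ± 0.05, adjusted p = 0.183). For DMSO against ES the Mavs difference of 0.13 ± 0.05 passed narrowly (adjusted p = 0.0469) and its call ended in 11 of 17 alternatives. Ifih1 had group means between 6.18 and 6.34 and no called difference in any of the 6 pairs of groups in the fit to all arrays. The share of all genes called was 39% for DMSO against ES and 36.6% for ATRA against ES.

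Over the 12 arrays Tlr3 and Eif2ak2 followed each other most closely (Pearson r = 0.974), with Dhx58 at 0.936 to Tlr3 and 0.893 to Eif2ak2. Ddx58 correlated with Eif2ak2 at 0.839, with Tlr3 at 0.771, with Dhx58 at 0.599 and with Zbp1 at 0.12. Mavs and Zbp1 ran opposite to each other at -0.747. These coefficients are descriptions over arrays that share the same 4 group means and carry no test.

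The genes whose values ran closest to Ddx58 were Serpinb9b, a serine protease inhibitor gene (r = 0.994), the glypican gene Gpc4 (0.993), the actin regulator gene Eps8 (0.989), the kinase gene Sgk1 (0.989) and Ctnnal1 (0.989). Serpinb9b stood at 8.24 with ATRA, 9.26 with DMSO, 9.33 in EBs and 10.14 in ES cells. The closest to Tlr3 were Lox (0.996), which encodes lysyl oxidase of the collagen matrix, and the transcription factor genes Mecom (0.996) and Prrx1 (0.995). Eif2ak2 ran closest to Slc14a1 (0.992), the interferon-inducible gene Ifi203 (0.991) and Alcam (0.99). Zbp1 ran closest to Snai1 (0.987), Fbln1 (0.981) and Hoxa2 (0.981), Mavs to Tns3 (0.984), Exoc3l (0.973) and Fstl1 (0.968), and Dhx58 to Fundc1 (0.985), Marchf2 (0.983) and Sox4 (0.982). For Ifih1 the 3 closest, Dnah5, Tnxb and Aqp9, reached 0.894 to 0.921, and their group means also lay below the array medians. All these coefficients are the highest of a ranking of genes over 12 arrays that share 4 group means. Values this high can arise between any genes whose groups differ in a like order, and they carry no test. For Ddx58 the ranking also uses the ATRA and DMSO values that singled it out.

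RIG-I, MDA5 and LGP2 belong to the large superfamily of DExD/H-box helicases, most of which work in RNA splicing, ribosome assembly and translation. Of the 49 other measured genes named Ddx or Dhx, 1 was called for ATRA against DMSO, where 13.3% of all genes were called. It was Dhx32, higher by 0.47 ± 0.04 (limma adjusted p = 1.27e-05), and the 49 lay between -0.27 and 0.47. Without ES replicate 2 and EB replicate 2, which enter only through the shared spread, 1 was called higher and 3 lower. The lowest was Ddx60, an interferon-inducible helicase gene that has been described as a cofactor of RIG-I (-0.27 ± 0.09, adjusted p = 0.0711). For EB against ES 34.7% of all genes were called, 17.8% as higher and 16.9% as lower. The 49 lay between -0.29 and 0.35 there, with Ddx17 at 0.35 ± 0.04 and Ddx24 at -0.25 ± 0.04. Of them, 6 were called higher and 12 lower. Without those 2 arrays these counts were 4 and 6. The values of Ddx58 and Dhx58 lay outside the range of the 49 for EB against ES. That of Ddx58 also did so for ATRA against DMSO, which follows from its having been singled out by that value.

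**Figure D3:**
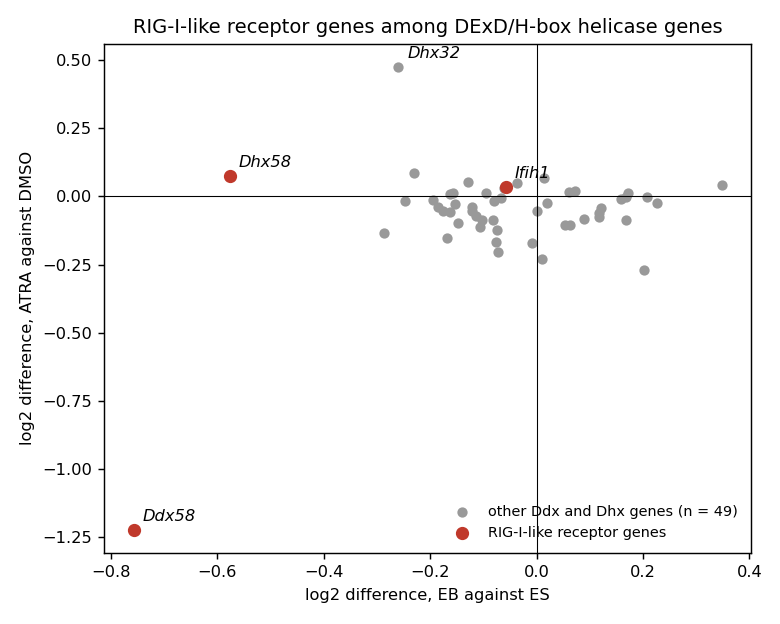
Log2 difference of EB against ES (horizontal axis) and of ATRA against DMSO (vertical axis) for Ddx58, Dhx58 and Ifih1 (red) and 49 other Ddx and Dhx genes (grey); the axes share no arrays. Ddx58 stands at -0.76 and -1.22, Dhx58 at -0.58 and 0.07, and Ifih1 among the other helicase genes at -0.06 and 0.03. The -1.22 of Ddx58 is the value that singled it out.

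The genes that act around the sensors were read for ATRA against DMSO beside the 13.3% of all genes called. Of 12 regulators of the sensors, 2 were higher and 1 lower (limma, 7 at an unadjusted p under 0.05), with a median difference of -0.01: Itch, a ubiquitin ligase gene that targets MAVS, rose by 0.26 ± 0.05 (limma adjusted p = 0.00251), Nlrx1, a mitochondrial NLR family gene, rose by 0.21 ± 0.06, and Zc3hav1, which encodes the zinc-finger antiviral protein ZAP, fell by 0.21 on the log2 scale. Without ES replicate 2 and EB replicate 2, which enter this comparison through the shared spread, 4 regulators were lower. Of 16 measured adaptors, kinases and factors downstream, Irf5, an interferon regulatory factor gene, was called, higher by 0.79 ± 0.07 (adjusted p = 6.92e-06). Of 12 measured interferon and interferon receptor pathway genes, Irf8 rose by 0.36 ± 0.07, while Irf9, part of the complex that drives interferon-stimulated genes, fell by 0.21 on the log2 scale (adjusted p = 0.035) and the receptor gene Ifnar1 by 0.17. Of 8 measured genes of the eIF2alpha pathway in which PKR acts, Ddit3 (0.48 ± 0.05) and Eif2ak3, the kinase gene of the endoplasmic reticulum stress branch (0.17 ± 0.05), rose and none fell.

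Other sensors went in both directions with ATRA, and the interferon-stimulated genes that were called were all lower. Of all genes 7.05% were called lower and 6.26% higher. Of 20 other nucleic acid sensors and effectors, Oasl2 (0.40 ± 0.10, limma adjusted p = 0.0222) and Oas2 (0.19 ± 0.05, adjusted p = 0.0341) of the oligoadenylate synthetase family rose, and Ripk3 fell. Oas1a (-0.03 ± 0.09), Oas3 (0.15 ± 0.06) and Oasl1 (0.17 ± 0.07) of the same family were not called. Of 21 measured interferon-stimulated genes 4 fell and none rose, with a median of -0.07. They were Irgm1, an immunity-related GTPase gene (-0.73 ± 0.09), Xaf1 (-0.71 ± 0.06, adjusted p = 5.42e-06), and the membrane restriction factor genes Ifitm3 (-0.24 ± 0.06) and Ifitm1 (-0.19 ± 0.06, adjusted p = 0.0462). Several members of the Oas, Ifitm and Irgm families have close copies, whose RNA may reach the same probes.

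In EBs against ES cells, where 34.7% of all genes were called, the same lists were read. Of the 21 interferon-stimulated genes 19 were called lower and 1 higher, with a median of -0.66; 16 fell and 1 rose without ES replicate 2 and EB replicate 2. Trim30a, of a gene family with close copies, fell by 3.26 on the log2 scale, Usp18, the gene of an interferon receptor inhibitor, fell by 3.24, and Rtp4 fell by 2.49 (limma adjusted p = 3.94e-10). Of the 20 other sensors and effectors 12 fell and 2 rose, with a median of -0.36. Oasl2 was at -2.65 ± 0.10 and Oas2 at -2.13 ± 0.05, and Sting1, the adaptor gene of cytosolic DNA sensing, at -1.46 ± 0.10 (adjusted p = 2.03e-07). Downstream, Irf7 (-0.94 ± 0.07), Irf5 (-0.90 ± 0.07), the kinase gene Ikbke (-0.81 ± 0.05) and Tank (-0.42 ± 0.07) fell, 5 of 16 in all, and 2 rose, among them Tbk1 (0.31 ± 0.06). Of the interferon pathway genes Irf9 fell by 0.53 on the log2 scale and Tyk2 rose by 0.36 ± 0.07, with 2 higher and 4 lower of 12. Among regulators Rnf125, a ubiquitin ligase gene that limits RIG-I signalling, rose by 0.68 ± 0.06 and Zc3hav1 fell by 0.50 on the log2 scale, with 5 higher and 2 lower of 12. Of the eIF2alpha pathway genes 3 rose and 1 fell, with Dnajc3 (0.35 ± 0.04), which encodes an inhibitor of these kinases, and Atf4 (0.40 ± 0.06) higher. Some listed genes were not analysed here.

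**Figure D4:**
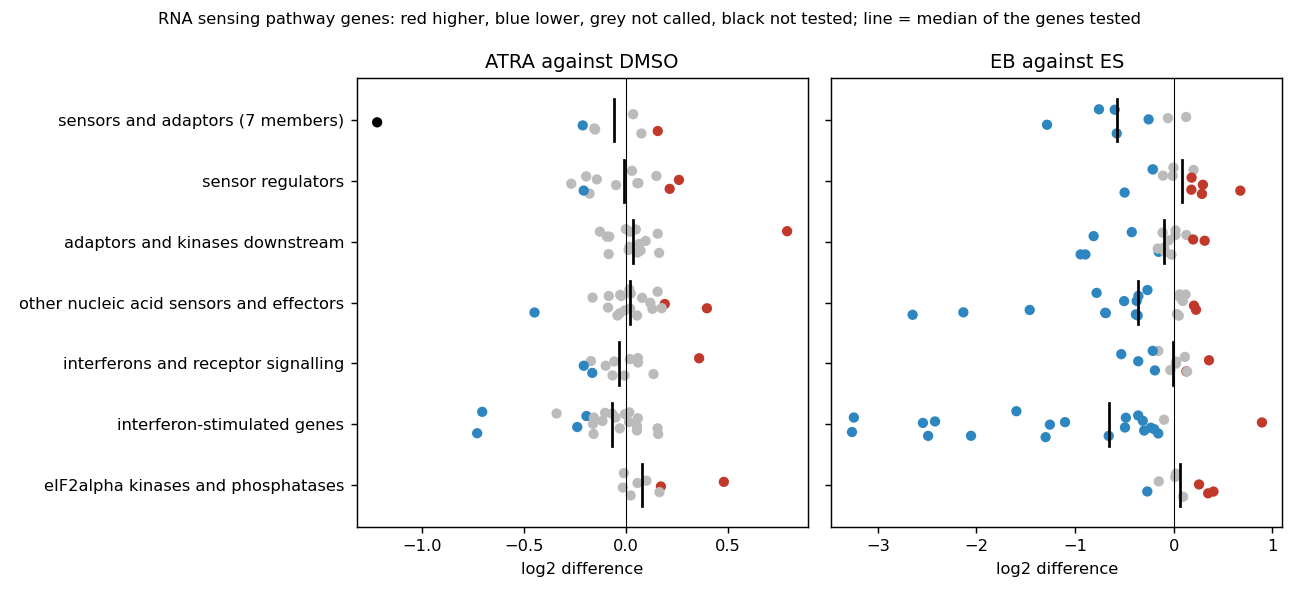
Log2 differences of the 7 sensor and adaptor genes and of 6 lists of pathway genes for ATRA against DMSO and for EB against ES; each point is a gene (red called higher, blue called lower, grey not called, black not tested) and each black line the median of the genes tested in a list. The scales of the panels differ. With ATRA the medians of the 6 lists lie between -0.07 and 0.08 and that of the 6 tested sensor and adaptor genes at -0.06, whereas for EB against ES the interferon-stimulated genes reach -3.26 around a median of -0.66.

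Markers of other cell types moved with some of these results. Their counts stand beside 34.7% of all genes called for EB against ES and 13.3% for ATRA against DMSO. Fibroblast markers fell in 11 of 13 cases in EBs against ES cells, and the sum of their signals on the linear scale was 14607 to 15107 in EBs and 27289 to 27322 in ES cells. Of the 13, S100a4 (-2.30 ± 0.07) and Fbln2 (-2.06 ± 0.07) fell in that step. With ATRA 5 of the 13 fell and 2 rose, and the sum was 12244 to 12710, against 13985 to 14715 with DMSO. Visceral endoderm markers rose in all 12 cases in EBs against ES cells (sums of 18734 to 21181 and 6742 to 6869), and with ATRA 5 of 12 fell and 1 rose (20609 to 23358 with ATRA and 22874 to 26144 with DMSO). Markers of macrophages and blood, cells rich in these sensors, had 0 of 11 called for ATRA against DMSO (limma, 0 at an unadjusted p under 0.05), with sums of 2601 to 2739 and 2636 to 2723. In EBs against ES cells 2 of these 11 rose and 1 fell (2388 to 2661 and 2200 to 2396). The mean log2 value of the 11 overlapped there (6.87 to 7.04 in EBs and 6.95 to 7.11 in ES cells). Of 10 markers of pluripotent cells 5 fell with ATRA and none rose (limma, 6 at an unadjusted p under 0.05), among them Zfp42 (-0.57 ± 0.06) and Fgf4 (-0.49 ± 0.04), with sums of 76274 to 76417 with ATRA and 82125 to 82594 with DMSO. In EBs against ES cells 4 of these 10 rose and 1 fell (79070 to 82896 and 72834 to 75873). Of 7 endothelium markers 1 rose and 2 fell with ATRA (3669 to 3814 with ATRA and 3189 to 3312 with DMSO), and 2 rose and 1 fell in EBs against ES cells (3088 to 3136 and 2684 to 2747). The gene that rose with ATRA was Pecam1 (0.73 ± 0.05). The mean log2 value of the 7 overlapped (8.13 to 8.19 with ATRA and 8.13 to 8.18 with DMSO). No marker is listed at 0, and in bulk RNA fewer cells of a type and less RNA per cell cannot be told apart. The part of these cell types in the differences of the sensor genes was not tested.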

How the data were processed

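The authors deposited 1 table of log2 values for 35556 probe sets on 12 Affymetrix arrays. Their range (2.30 to 14.7) is the only basis for reading them as log2; how background, normalization and summarization were done is not given in the sources used here. Array medians were nearly equal, so the values had been normalized between arrays, which hides changes of total RNA per cell. Per the labels' protocols, biotinylated cDNA was made from total RNA.

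Of the probe sets, 21789 had 1 symbol in the platform annotation, 1621 several and 12146 none. Where a gene had several probe sets of its own, that with the largest mean value was used (19938 genes, no filter on low values). A RefSeq table of GRCm38.p6 held the gene identifiers of 21698 of the 21789. The model was limma 3.58.1 in R 4.3.3 (a mean per group, contrasts, eBayes, 8 residual and 3.93 prior degrees of freedom). The 3 arrays per group limit the precision, and p-values measure the spread between samples labelled biological replicates. On simulated arrays for ATRA against DMSO (19938 genes, 200 of them changed), 32% of changes of 0.25, 68% of 0.5 and 98% of 1 on the log2 scale were recovered, with 9 false among 158 calls. The measured arrays gave 2655 calls, which makes the adjustment less strict, so these rates need not hold for them.

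The members and gene lists were chosen with earlier results of these data known. Beyond the members, each list names up to 4 called genes per comparison by smallest adjusted p (2 of largest change where none was called), some of them not printed; Ddx60, Tbk1 and the genes given as list extremes were named after their values were seen. Likeness of pattern was ranked by Pearson r over 12 arrays, without microRNAs, predicted genes or genes of odorant and vomeronasal receptors. Alternatives were scaling, filters, probe set choice, variance prior, array weights, samples fitted, a replicate block, arrays left out and the threshold.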

Additional observations from a re-analysis of the deposited data

How the results depend on the processing

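No member's called difference changed direction in any of the alternatives run. For ATRA against DMSO, 2 of 6 members were called, and 1 (Mavs, Zbp1 being lost or, for the filter, left out) with median centring, with genes above the median of mean value, with an intensity trend and robust prior, with the replicate block, at an adjusted p of 0.01, and in every fit that left out 1 array (1 to 1). Against EB, ATRA samples had 2 members called, and 1 with the intensity trend, at 0.01, and without some single arrays (1 to 2). The filter, which keeps only some members, left 3 called for EB against ES (5 without it), 2 for DMSO against ES (5) and 1 for ATRA against ES (3, and 5 with array weights). Over all genes, ATRA against DMSO gave 2655 calls, 4311 with array weights and 1605 at 0.01. ATRA against EB gave 3673 and 2126 at 0.01, and ATRA against ES 7306 and 11052 with array weights. DMSO against EB gave 149 calls (71.8% higher), 253 after quantile normalization (57.7% higher), 131 after median centring (87% higher), 761 above the median of mean value, 476 with all probe sets, 626 with the intensity trend, 25 with only those groups, 62 with the replicate block, 27 without ES replicate 2 and EB replicate 2, and 5 at 0.01. Leaving out 1 array gave 0 to 128, with 0 in limma without EB replicate 1 (3080 at an unadjusted p under 0.05) or DMSO replicate 1 (2340). The share called higher was 47.2% for DMSO against ES and 47.9% for ATRA against ES, and 58.3% and 58.6% after median centring. The causes were not tested. The replicate numbers were not taken as pairs: correlations of deviations between same-numbered ATRA and DMSO arrays were 0.088, -0.0376 and -0.00727, and between EB and ES arrays 0.303, 0.506 and -0.065, so not every pair was over 0.1 and the block is an alternative only. Single-gene calls differed in 38 of 690 fits of a member (26 lost, 12 gained). The 690 include Ddx58 in the comparisons where it was not tested, 17 fits in each. No call exists there, and only a shift of its value was scored. The 3 arrays per group limit what small differences can be called.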
